A study of Mus musculus with 9 samples.

Results

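The genes of the type I interferon response and of RNA sensing were followed in mouse brain over 9 Affymetrix Mouse Gene 1.0 ST arrays, with 3 control, 3 model and 3 HPYD arrays. The members were 43 named genes, and each was read from the probe set that carried its symbol alone, or from the one with the highest mean where a gene had several. Such a probe set was found for 39 of them, among 19938 genes measured. Irgm2 and Igtp shared 1 probe set, Gbp2 shared one with Gbp2b and Isg15 shared one with Gm9706, so these 4 genes were not counted. The control mice were wild type, labelled C57/6J, and received saline. The model group comprised APP/PS1 mice given saline, and the HPYD group comprised APP/PS1 mice given HPYD, a peptide designed to break β-sheets of amyloid, at 33 mg/mL. All 3 groups were dosed through the nose with 5 μL per day for 30 days. The APP/PS1 mice form amyloid plaques with age, and these animals were purchased at 8 months of age. The study describes the controls as matched in age and background. The APP/PS1 line and the promoter of its transgenes are not stated in the sources used here, and the tissue is named only as brain. Separate mice for each array are not stated either, so each p-value reflects only how far these arrays spread, which may be technical.

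In the type I interferon response, sensors in the cytoplasm such as RIG-I and MDA5 bind foreign or misplaced RNA and signal through the adaptor MAVS and the kinase TBK1 to the transcription factors IRF3 and IRF7, which switch on interferon genes. Secreted interferon binds its receptor IFNAR, and a complex that holds STAT2 and IRF9 then activates interferon-stimulated genes, many of which block viral replication. In the brain, microglia, astrocytes and endothelial cells can all mount this response, and it has been described around amyloid plaques in mice.

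The arrays held more than the group labels. App and Prnp, given as a check of the transgenes because the prion promoter drives them in a widely used APP/PS1 line, lay 0.50 to 0.59 (median of both, log2) above the control mean on Model 1, 2 and 3 and on HPYD 1 and 2, but had a median of -0.16 on the array labelled HPYD 3. The 9 genes of plaque-associated microglia, such as Cst7, Itgax and Clec7a, had medians of 0.84 to 1.39 above the control mean on the same 5 arrays and of -0.15 on the array labelled HPYD 3, which therefore went against its label. Markers of skeletal muscle such as Myh1, Myh2 and Myh4 had medians of 2.37 on Model 1, 4.01 on Model 2 and 0.71 on HPYD 2, and of -0.03 to 0.04 on the other 3 arrays labelled model or HPYD. The neuronal genes Snap25, Syt1 and Rbfox3, which define brain tissue, were between 11.37 and 13.27 on all 9 arrays. The array labelled HPYD 3 is counted below as an HPYD array. Results are given array by array, and without it where it bears on them.

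No member passed an adjusted p of 0.05 in any comparison (limma with Benjamini-Hochberg adjustment over all genes), and neither did any other gene, so the share of genes called was 0% between model and control, 0% between HPYD and model and 0% between HPYD and control. The smallest adjusted p of a member was 0.859 (model and control), 1 (HPYD and model) and 0.860 (HPYD and control). The values are therefore described by group means, by overlap of the arrays and by unadjusted p.

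In the model group the members sat mostly above the control group. The mean was higher for 35 of the 39 members, with a median log2 fold change of 0.26, whereas over all genes 45.0% had a higher mean and the median was -0.01. For 17 members every model array was above every control array, and for 0 members every one was below, while 4.83% of all genes did the first and 4.68% the second. An unadjusted p under 0.05 was reached by 18 members with a higher mean and 0 with a lower mean, against 2.87% and 2.05% of all genes. The size of the differences was small: log2 fold changes ran from -0.02 to 0.70. Leaving out 1 array moved the count at an unadjusted p under 0.05 from 18 to 9 without Control 2 or Model 2 and to 10 without Control 1. Over all 19938 genes it moved from 980 to 914 without Control 2, 462 without Model 2 and 435 without Control 1. With the muscle level as a covariate it was 4 members, against 287 of all genes. Without the 3 arrays with raised muscle genes only 1 model array was left, and the median over the members was 0.09. In such whole-tissue RNA, more cells of a type and more RNA per cell cannot be told apart.

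Marker lists of glia and neurons also differed in their group means. The 5 oligodendrocyte genes, Mbp and Mog among them, had a higher mean than control in both other groups, with medians of 0.38 in model and 0.38 in HPYD mice. Per array their medians were -0.12, 0.38 and -0.22 in the controls, 0.07, 0.59 and 0.47 in the model group and 0.47, 0.09 and 0.42 in the HPYD group, so these arrays overlapped. Of the 6 astrocyte genes, 5 had a higher mean than control in both groups, with medians of 0.07 and 0.09. Gfap, which reactive astrocytes raise, was 9.58, 9.57 and 9.34 in the controls, 10.65, 10.07 and 10.44 in the model group and 10.47, 10.88 and 9.65 in the HPYD group. It was above the controls on all 6 arrays, only narrowly so on the array labelled HPYD 3. The 7 neuronal genes had a lower mean than control for 6 in model and 5 in HPYD mice, with medians of -0.15 and -0.06. Per array their medians were -0.05, -0.01 and 0.03 in the controls, -0.03, -0.09 and -0.02 in the model group and -0.02, -0.06 and -0.03 in the HPYD group, so these arrays overlapped as well. The part of these cells in the members' values was not tested.

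**Figure D1:**
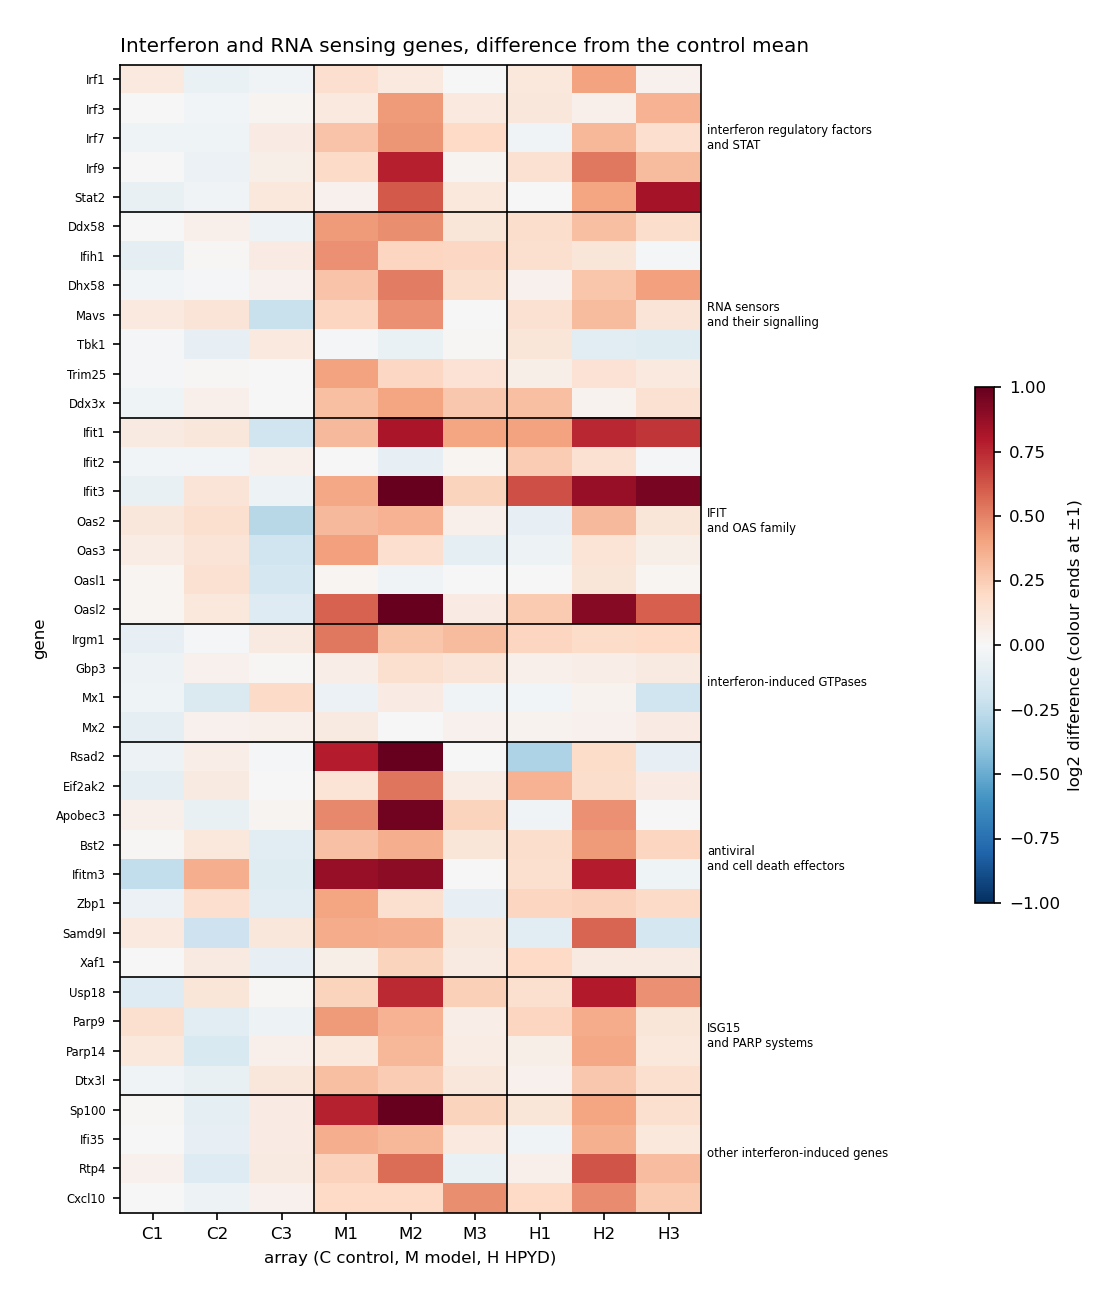
Difference of each of the 39 genes (rows, by role) from its control mean on each of the 9 arrays (columns, C control, M model, H HPYD), in log2 units by colour, with colours ending at ±1. Columns M1, M2 and H2 are the darkest red, with 32, 32 and 33 of 39 genes above every control array, and M3 is the palest of the model arrays with 17.

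Many members are classic targets of the complex with STAT2 and IRF9, which binds an interferon-stimulated response element. Promoters of GRCm38.p6 from RefSeq, from 250 bases before to 50 bases after the gene start, were found for 34 of the 43 members. The core of that element, GAAANNGAAA on either strand, was present in 18 of these 34 (52.9%), against 3.44% of all 32851 promoters and 3.99% of the 27025 genes that they belong to. The gamma-activated site TTCNNNGAA, which reads the same on both strands, was present in 8 of 34 members (23.5%), against 8.30% of all promoters and 9.55% of genes. The 6 stretches below show that core, in capitals, in 4 of the 6 members that the study picked for RT-qPCR and in Ddx58 and Ifit1, those of the other members holding it with the smallest p for model against control.
Irgm1: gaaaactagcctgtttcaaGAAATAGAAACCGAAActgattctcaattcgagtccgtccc
Ifih1: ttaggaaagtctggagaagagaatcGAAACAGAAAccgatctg
Apobec3: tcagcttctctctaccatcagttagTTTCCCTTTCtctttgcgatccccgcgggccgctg
Rsad2: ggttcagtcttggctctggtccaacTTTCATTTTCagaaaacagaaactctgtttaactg
Ddx58: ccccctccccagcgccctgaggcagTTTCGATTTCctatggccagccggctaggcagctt
Ifit1: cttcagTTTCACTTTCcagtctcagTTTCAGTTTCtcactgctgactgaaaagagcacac
These stretches are written 5′ to 3′ on the strand of the gene. Irgm1 lies at chr11:48871410-48871469 on the minus strand, Ifih1 at chr2:62646206-62646248 on the minus strand, Apobec3 at chr15:79892243-79892302 on the plus strand, Rsad2 at chr12:26456538-26456597 on the minus strand, Ddx58 at chr4:40239789-40239848 on the minus strand and Ifit1 at chr19:34640779-34640838 on the plus strand. Irgm1 holds 2 overlapping copies of the core and Ifit1 2 separate ones, in Apobec3, Rsad2, Ddx58 and Ifit1 the core is on the opposite strand, and in Ifih1 and Ddx58 it follows the gene start. These letters were not in the windows of Irf7 and Ddx3x, the other 2 genes picked for RT-qPCR. A match is a description of the sequence, and the arrays did not measure binding.

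Of the 7 RNA sensors and their signalling partners, 6 were higher on average in model mice, and the median log2 fold change was 0.30. For 5 of the 7 every model array was above every control array, against 4.83% of all genes. Ddx58 encodes RIG-I, a helicase that recognises RNA ends. Its signal was 7.50, 7.55 and 7.45 on the control arrays, 7.93, 7.96 and 7.62 on the model arrays and 7.67, 7.80 and 7.67 on the HPYD arrays. All 6 model and HPYD arrays were above every control array, and Model 1, Model 2 and HPYD 2 were the highest. Against control, its log2 fold change was 0.34 (standard error 0.10) in model mice and 0.22 (0.10) in HPYD mice.

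Ifih1 encodes MDA5, the sensor of long double-stranded RNA, and was among the genes that the study picked on these samples, so its direction is not independent evidence. It was 6.56, 6.66 and 6.72 in the controls, 7.10, 6.86 and 6.86 in the model group and 6.80, 6.77 and 6.63 in the HPYD group. The model arrays were above all other arrays, HPYD 1 and 2 came between the groups, and the array labelled HPYD 3 fell within the control range. Ifih1 had a log2 fold change of 0.30 (standard error 0.09) in the model group against control and of -0.21 (0.09) in the HPYD group against model, the latter -0.15 without the array labelled HPYD 3. Ddx3x, an RNA helicase with many roles that also aids signalling through MAVS and was likewise picked by the study, was 10.34, 10.43 and 10.39 in the controls, 10.69, 10.78 and 10.65 in the model group and 10.69, 10.42 and 10.54 in the HPYD group. Its 3 model arrays were within 0.13 of each other and above every control array, and the HPYD arrays spread from the control to the model level. Model against control gave a log2 fold change of 0.32 (standard error 0.08), and a second Ddx3x probe set gave 0.41.

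Trim25 encodes a ubiquitin ligase acting on RIG-I. It was 6.77, 6.81 and 6.80 in the controls, 7.20, 7.00 and 6.94 in the model group and 6.85, 6.94 and 6.89 in the HPYD group. The 3 groups were ordered without overlap, with the HPYD arrays in the middle, but HPYD 2 (6.937) was only just below Model 3 (6.940). Dhx58, which encodes the regulator LGP2 and lies in the dimmest 33.3% of genes, was 5.92, 5.94 and 5.99 in the controls, 6.24, 6.47 and 6.13 in the model group and 6.00, 6.23 and 6.36 in the HPYD group. Model against control gave log2 fold changes of 0.25 (standard error 0.07) for Trim25 and 0.33 (0.11) for Dhx58. The adaptor Mavs had a log2 fold change of 0.22 with overlapping arrays, and that of the kinase Tbk1 was -0.02 (standard error 0.08).

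Among the 4 interferon-induced GTPases, Irgm1, which acts on membranes of vacuoles that hold pathogens, had the smallest p of all members for model against control. It was 7.15, 7.22 and 7.33 in the controls, 7.76, 7.51 and 7.55 in the model group and 7.45, 7.42 and 7.43 in the HPYD group. The 3 groups did not overlap, and the HPYD arrays were within 0.03 of each other between the other groups. Its log2 fold change was 0.37 (standard error 0.08) for model over control, -0.17 (0.08) for HPYD over model and 0.20 (0.08) for HPYD over control, all with exact two-sided permutation p = 0.1, the smallest that 3 arrays against 3 allow. Irgm1 was picked by the study for RT-qPCR. Gbp3, a guanylate-binding protein, was 6.50, 6.60 and 6.57 in the controls, 6.62, 6.72 and 6.69 in the model group and 6.61, 6.62 and 6.65 in the HPYD group, so all 6 arrays labelled model or HPYD were above the controls by a narrow margin. Mx1 and Mx2, antiviral dynamin-like proteins, were at 4.34 to 4.73 and 4.44 to 4.62 on all arrays, among the dimmest 33.3% of genes, with log2 fold changes for model against control of -0.00 and 0.04.

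All 5 transcription factors were higher on average in model mice. For 2 of them every model array was above every control array, against 4.83% of all genes. Irf7, the amplifier of interferon production and a gene picked by the study, was 6.32, 6.33 and 6.45 in the controls, 6.65, 6.81 and 6.57 in the model group and 6.33, 6.70 and 6.54 in the HPYD group. Every model array was above every control array, while HPYD 1 was at the control level and HPYD 2 at the model level. Irf7 had a log2 fold change of 0.31 (standard error 0.10) in the model group and 0.15 (0.10) under HPYD, both against control. Irf3, the first factor activated by the sensors, was 7.38, 7.35 and 7.41 in the controls, 7.48, 7.81 and 7.48 in the model group and 7.50, 7.43 and 7.73 in the HPYD group. Here Model 2 and the array labelled HPYD 3 stood above the rest.

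Irf9, the DNA-binding part of the complex with STAT2, was 7.62, 7.56 and 7.68 in the controls, 7.81, 8.39 and 7.65 in the model group and 7.78, 8.15 and 7.94 in the HPYD group. Model 3 was at the control level, and the 3 HPYD arrays were above every control array. Stat2 was 7.99, 8.03 and 8.18 in the controls, 8.11, 8.68 and 8.18 in the model group and 8.07, 8.46 and 8.90 in the HPYD group. The array labelled HPYD 3 was the highest of all 9, and Model 1 and HPYD 1 were within the control range. The log2 fold changes for HPYD against control were 0.33 (standard error 0.18) for Irf9 and 0.41 (0.22) for Stat2, the latter 0.20 without the array labelled HPYD 3. Irf1, induced by type I and type II interferon, had log2 fold changes of 0.09 and 0.18 in the model and HPYD groups against control, and its second probe set gave -0.15 and 0.02.

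The IFIT and OAS family was uneven. Ifit3 and Ifit1, which both lie on chromosome 19, had the largest HPYD-against-control values of all members. Ifit3 was 8.19, 8.39 and 8.21 in the controls, 8.65, 9.32 and 8.49 in the model group and 8.91, 9.14 and 9.21 in the HPYD group. Ifit1 was 6.88, 6.90 and 6.59 in the controls, 7.11, 7.61 and 7.18 in the model group and 7.19, 7.54 and 7.50 in the HPYD group. For both genes all 6 arrays labelled model or HPYD were above every control array, the one labelled HPYD 3 among them, and Model 2 was the highest of the 9. For Ifit3 the log2 fold change was 0.55 (standard error 0.20) in the model group and 0.82 (0.20) in HPYD mice against control, or 0.76 without the array labelled HPYD 3. Those of Ifit1 were 0.51 (0.16) and 0.62 (0.16), the latter 0.58 without that array.

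Oasl2, an oligoadenylate synthetase-like protein, was 7.60, 7.68 and 7.45 in the controls, 8.16, 8.62 and 7.66 in the model group and 7.84, 8.48 and 8.18 in the HPYD group. Model 3 was at the control level and the HPYD arrays were above it. Oasl2 had log2 fold changes of 0.57 (standard error 0.24) and 0.59 (0.24) over control in the model and HPYD groups. The model value was 0.34 without Model 2 and 0.09 without the 3 arrays with raised muscle genes. Oas2, whose product makes the second messenger that activates RNase L, was 6.24, 6.29 and 5.85 in the controls, 6.45, 6.48 and 6.18 in the model group and 6.04, 6.45 and 6.25 in the HPYD group, so its arrays overlapped. Oas3, Oasl1 and Ifit2 had log2 fold changes for model against control of 0.16, -0.00 and -0.02, and the arrays of each overlapped between these groups.

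All 8 antiviral and cell death effectors were higher on average in model mice. Only for Apobec3 and Bst2 was every model array above every control array, against 4.83% of all genes. Rsad2, the enzyme viperin that makes a chain-terminating nucleotide, was 6.48, 6.59 and 6.51 in the controls, 7.31, 7.77 and 6.53 in the model group and 6.22, 6.72 and 6.45 in the HPYD group. Only Model 1 and Model 2 stood apart, Model 3 was within the control range, and HPYD 1 and the array labelled HPYD 3 were below every control array. Rsad2 had a log2 fold change of 0.67 (standard error 0.28) for model over control and of -0.74 (0.28) for HPYD over model, the lowest value of a member in that comparison. Model 1 and Model 2 are the 2 arrays with the highest medians of skeletal muscle and granulocyte markers, and without them and HPYD 2 the Rsad2 value was -0.00 for model over control and -0.19 for HPYD over model. The part of those cells in this result was not tested.

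Apobec3, a cytidine deaminase that acts on retroviral DNA, was 6.88, 6.75 and 6.85 in the controls, 7.31, 7.79 and 7.05 in the model group and 6.79, 7.28 and 6.82 in the HPYD group. Model 1, Model 2 and HPYD 2 were the 3 highest arrays, and HPYD 1 and the array labelled HPYD 3 were within the control range. Its log2 fold change was 0.56 (standard error 0.20) for model over control and -0.42 (0.20) for HPYD over model, and the second probe set gave 0.13 for model against control. Rsad2 and Apobec3 were both picked by the study. Bst2, or tetherin, was 7.36, 7.46 and 7.24 in the controls, 7.65, 7.71 and 7.47 in the model group and 7.53, 7.78 and 7.57 in the HPYD group. All 6 model and HPYD arrays were above the controls, and the log2 fold changes were 0.26 (0.10) and 0.27 (0.10).

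Ifitm3, which blocks entry of viruses at endosomes, was 9.95, 10.56 and 10.07 in the controls, 11.06, 11.08 and 10.19 in the model group and 10.35, 10.98 and 10.15 in the HPYD group. Model 1, Model 2 and HPYD 2 were again the 3 highest, the controls spread over 0.61, and the log2 fold change for model against control was 0.59 (standard error 0.30), or -0.00 without the 3 arrays with raised muscle genes. Eif2ak2, the kinase PKR that halts translation on double-stranded RNA, was 6.03, 6.22 and 6.14 in the controls, 6.27, 6.66 and 6.21 in the model group and 6.48, 6.31 and 6.21 in the HPYD group, with overlap. Zbp1, Samd9l and Xaf1 had log2 fold changes for model against control of 0.16, 0.28 and 0.12, and their arrays overlapped too.

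Usp18, the protease that removes ISG15 and restrains the interferon receptor, was 6.62, 6.87 and 6.76 in the controls, 6.98, 7.50 and 6.99 in the model group and 6.91, 7.54 and 7.21 in the HPYD group. All 6 model and HPYD arrays were above every control array, with Model 2 and HPYD 2 the highest. Usp18 had log2 fold changes over control of 0.40 (standard error 0.19) in model mice and 0.47 (0.19) in HPYD mice. Parp9 and Dtx3l, whose products form 1 complex, had log2 fold changes for model against control of 0.28 (0.12) and 0.22 (0.09). Parp9 was 6.49, 6.22 and 6.27 in the controls, 6.75, 6.68 and 6.39 in the model group and 6.54, 6.70 and 6.44 in the HPYD group, and Dtx3l was 6.95, 6.91 and 7.10, then 7.29, 7.24 and 7.10, then 7.03, 7.26 and 7.15. In both genes Model 1, Model 2 and HPYD 2 were the highest arrays and Model 3 was within the control range. Parp14 was 6.12, 5.86 and 6.06 in the controls, 6.12, 6.34 and 6.09 in the model group and 6.08, 6.40 and 6.12 in the HPYD group, with overlap.

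Sp100, a component of PML nuclear bodies, had the largest value of all members for model against control. It was 6.47, 6.38 and 6.54 in the controls, 7.23, 7.57 and 6.69 in the model group and 6.59, 6.86 and 6.63 in the HPYD group. All 6 model and HPYD arrays were above every control array, but Model 1 and Model 2 were far above Model 3. Sp100 had a log2 fold change of 0.70 (standard error 0.20) for model over control, or 0.22 without the 3 arrays with raised muscle genes, and -0.47 (0.20) for HPYD against model, or -0.08 without them. Sp100 was not picked for RT-qPCR. The members were chosen with earlier results of these data known, so the direction of Sp100 is not independent evidence.

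Cxcl10, the chemokine that attracts T cells, followed another order. It was 6.07, 6.01 and 6.11 in the controls, 6.26, 6.26 and 6.53 in the model group and 6.26, 6.53 and 6.33 in the HPYD group. The deposited value was identical on Model 1, Model 2 and HPYD 1. Model 3 and HPYD 2 were the highest arrays, and all 6 arrays labelled model or HPYD were above every control array. Over control its log2 fold change was 0.29 (standard error 0.10) in model mice and 0.31 (0.10) in HPYD mice, and Cxcl10 lies in the dimmest 33.3% of genes. Ifi35 was 6.47, 6.38 and 6.54 in the controls, 6.83, 6.80 and 6.56 in the model group and 6.43, 6.82 and 6.57 in the HPYD group. Rtp4, a chaperone of receptors, was 6.70, 6.53 and 6.75, then 6.89, 7.22 and 6.59, then 6.71, 7.29 and 6.97. For Ifi35 the model arrays cleared the controls narrowly, and for Rtp4 Model 3 was within the control range.

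**Figure D2:**
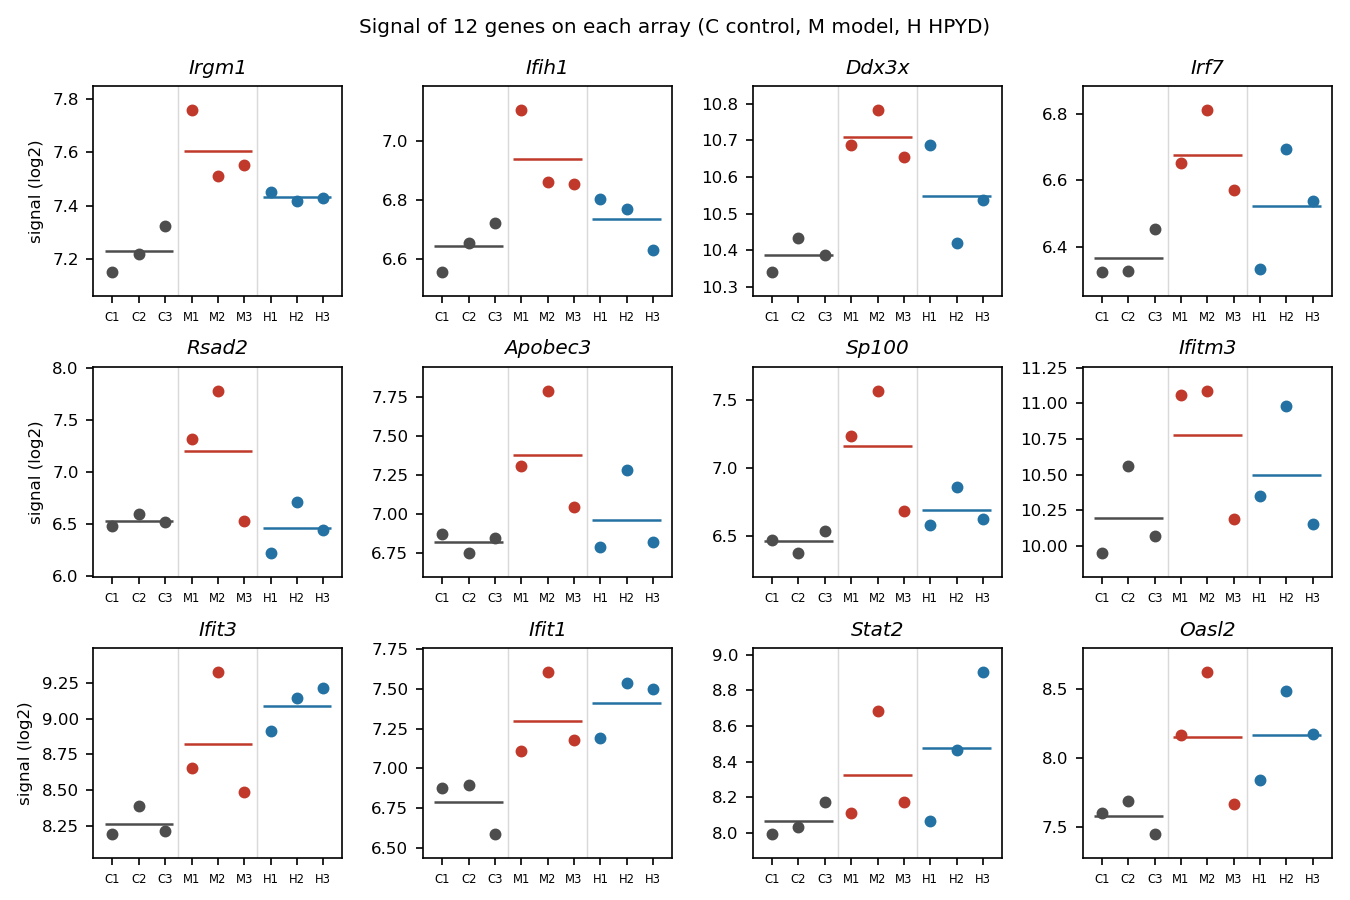
Signal (log2) of 12 genes on each array, with 1 point per array and a line at each group mean (grey C control, red M model, blue H HPYD). Irgm1 shows 3 separate groups, Rsad2 is high only on M1 and M2 (7.31 and 7.77), and Ifit3 is above the controls on all 6 arrays labelled model or HPYD.

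Between HPYD-treated and saline-treated APP/PS1 mice the members went in both directions. The mean was lower in the HPYD group for 23 of the 39 and higher for 16, with a median log2 fold change of -0.05, against 0.02 over all genes. Every HPYD array was below every model array for 3 members, Ifih1, Trim25 and Irgm1, and above for 0, while 0.983% of all genes were below and 2.24% above. An unadjusted p under 0.05 was reached by 3 members with a lower mean, Ifih1, Rsad2 and Sp100, and by 0 with a higher mean, against 0.752% and 1.22% of all genes. The 3 that did not overlap had small values, -0.21, -0.15 and -0.17 in the order named. All 7 RNA sensors and partners had a lower mean in the HPYD group, from -0.21 to -0.01, whereas 5 of the 7 IFIT and OAS genes had a higher mean, up to 0.27 for Ifit3. The median was -0.00 without the array labelled HPYD 3 and -0.13 without Model 3. The count at an unadjusted p under 0.05 was 0 without Model 1, 1 with any single control array or the array labelled HPYD 3 left out, 5 without HPYD 2 and 6 without Model 3. Over all 19938 genes it was 393 with every array, 616 without Model 1 and 280 to 357 without a control array. It was 265 without the array labelled HPYD 3, 454 without HPYD 2 and 826 without Model 3. Without the 3 arrays with raised muscle genes, 1 model array was left and the median over the members was 0.05.

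In the HPYD group against the control group, the mean was higher for 36 of 39 members, with a median log2 fold change of 0.18, against 0.01 over all genes. For 15 members every HPYD array was above every control array and for 0 below, against 4.78% and 4.74% of all genes. They were Irf3, Irf9, Ddx58, Dhx58, Trim25, Ifit1, Ifit3, Oasl2, Irgm1, Gbp3, Bst2, Zbp1, Usp18, Sp100 and Cxcl10. An unadjusted p under 0.05 was reached by 7 with a higher mean (Ifit1, Ifit3, Oasl2, Irgm1, Bst2, Usp18 and Cxcl10) and 0 with a lower mean, against 2.00% and 1.24% of all genes. Without the array labelled HPYD 3, the median was 0.20, and the 7 members at an unadjusted p under 0.05 became 5, against 451 of all 19938 genes. In that setting 21 members did not overlap. With fewer arrays in a group any gene overlaps less often, and the share over all genes was not computed there. The count of members at that threshold was 4 without Control 1 or HPYD 2 and 11 without HPYD 1. Over all genes it was 646 with every array, 340 without Control 1, 561 without HPYD 2 and 1807 without HPYD 1. This comparison shares the control arrays with model against control, and HPYD against model shares the model arrays, so the comparisons are not independent of each other.

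**Figure D3:**
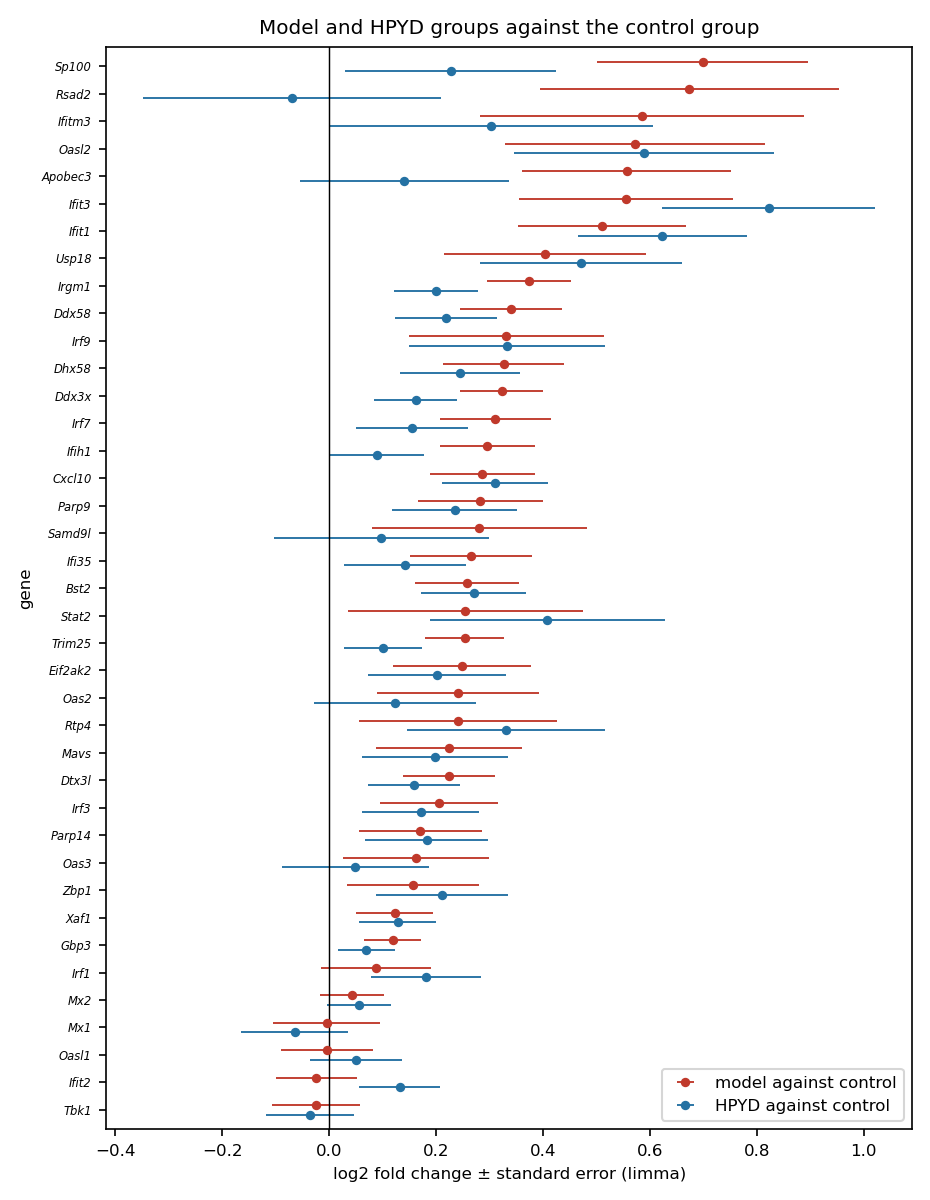
Log2 fold change with its standard error (limma, horizontal bars) for each gene in the model group (red) and the HPYD group (blue) against the same 3 control arrays, ordered by the model value. Sp100, Rsad2 and Apobec3 have the model point far to the right of the HPYD point (0.70 and 0.23, 0.67 and -0.07, 0.56 and 0.14), whereas for Ifit3 and Ifit1 the HPYD point is the higher one (0.82 and 0.62).

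The members fell into different orders across the arrays. For 14 of the 39 (35.9%), Model 1, Model 2 and HPYD 2 were above every other array, against 3.81% of all genes: Irf7, Ddx58, Mavs, Oas2, Oas3, Rsad2, Apobec3, Bst2, Ifitm3, Samd9l, Parp9, Dtx3l, Sp100 and Ifi35. For 12 (30.8%), all 6 arrays labelled model or HPYD were above every control array, against 1.72% of all genes: Irf3, Ddx58, Dhx58, Trim25, Ifit1, Ifit3, Irgm1, Gbp3, Bst2, Usp18, Sp100 and Cxcl10. Ddx58, Bst2 and Sp100 met both. Of the 39 members, 32 were above every control array on Model 1, 32 on Model 2, 17 on Model 3, 24 on HPYD 1, 33 on HPYD 2 and 23 on the array labelled HPYD 3, where all genes gave 25.3%, 30.1%, 19.1%, 20.6%, 29.6% and 39.6%.

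Model 1, Model 2 and HPYD 2 also carried markers of other tissues and blood cells. The 14 granulocyte genes such as S100a8, S100a9 and Ngp had medians of 3.21, 3.54 and 2.56 above the control mean on them, and of -0.71 to -0.09 on the other 3 arrays labelled model or HPYD. S100a8 ranged from 6.12 to 6.63 in the controls and was 9.91, 10.53 and 9.23 on these 3 arrays. The erythroid list (7 genes) had medians of 0.74, 1.27 and 0.73 on them and at most 0.20 on those other 3, and the list of monocytes and dendritic cells (8 genes) 0.23, 0.51 and 0.27, against at most 0.03. With the muscle level as a covariate, the members' median for model against control was 0.076, and without these 3 arrays it was 0.095. Without them Model 3 was the only model array left, so the next values set that array alone against the control mean. The log2 fold change for model over control was then 0.03 for Irf9, 0.11 for Stat2, 0.12 for Ddx58, 0.18 for Dhx58, 0.22 for Ifit3, 0.22 for Apobec3 and 0.12 for Bst2. It was 0.32 for Irgm1, 0.27 for Ddx3x, 0.39 for Ifit1 and 0.47 for Cxcl10. The part of these cells in the members' values was not tested.

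On Model 3 and HPYD 1, which have raised plaque-associated microglial genes (1.16 and 1.27) without raised muscle or granulocyte genes, 14 of 39 members (35.9%) were above every control array on both, against 8.29% of all genes. They were Irf3, Ddx58, Ifih1, Dhx58, Trim25, Ddx3x, Ifit1, Ifit3, Irgm1, Gbp3, Bst2, Usp18, Sp100 and Cxcl10. The same without Ifih1, 13 members (33.3%), were above the controls on the array labelled HPYD 3 too, against 4.31% of all genes, whose medians for the plaque-associated and transgene lists were -0.15 and -0.16. The 10 microglial genes, headed by Cx3cr1, P2ry12 and Tmem119, had medians of 0.41, -0.36 and 0.40 on the model arrays and 0.27, 0.40 and -0.73 on the HPYD arrays, and so were lowest on Model 2 and the array labelled HPYD 3. The median of the 7 endothelial genes was within -0.04 to 0.10 of the control mean on every array. The T and NK cell list had a median of 0.21 on HPYD 2 and of at most 0.05 on all others.

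**Figure D4:**
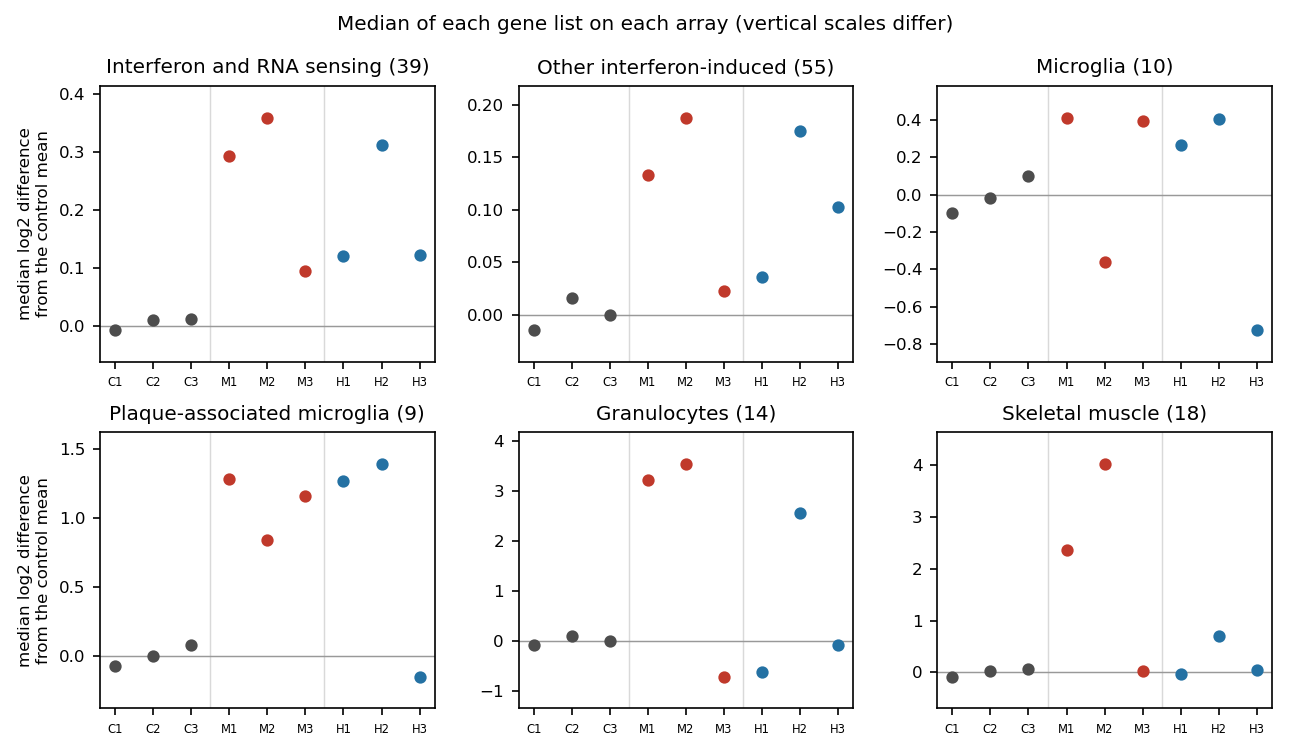
Median log2 difference from the control mean, with 1 point per array (grey C control, red M model, blue H HPYD), for the 39 interferon and RNA sensing genes and for 5 other lists with the number of genes in brackets. The interferon and RNA sensing genes are highest on M1, M2 and H2 (0.29, 0.36 and 0.31), where the granulocyte and muscle lists are highest too, and are 0.09 to 0.12 on M3, H1 and H3.

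The genes around the members were read from 5 further lists, of which 115 of 129 genes had a probe set of their own and 0 passed the adjusted threshold. The interferons and their receptors (16 of 17 measured) had a median of 0.01 for model against control. Ifnb1, the main type I interferon, was 4.64, 4.78 and 4.41 in the controls, 4.72, 4.49 and 4.64 in the model group and 4.64, 4.92 and 4.68 in the HPYD group, so the groups overlapped. The other interferon genes measured, Ifna2, Ifna4, Ifna5, Ifna9, Ifnk, Ifne, Ifnz, Ifng and Ifnl2, had log2 fold changes for model against control from -0.19 to 0.34, all overlapping. The receptor chain Ifnar1 differed by 0.01 (standard error 0.05), and Ifnar2 by 0.24 (0.09). Ifnar2 was 9.40, 9.49 and 9.44 in the controls, 9.74, 9.72 and 9.60 in the model group and 9.69, 9.50 and 9.38 in the HPYD group, with all model arrays above all controls. Of this list 2 genes, Ifnar2 and the interferon gamma receptor Ifngr1 (0.30, standard error 0.11), had an unadjusted p under 0.05. Over all genes 2.87% reached it with a higher mean.

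Signalling below the receptor showed little: the 10 of 11 JAK-STAT genes measured had a median of 0.00, with 1 gene, the phosphatase Ptpn6, at an unadjusted p under 0.05 (log2 fold change 0.32). The 28 of 31 adaptors, kinases and ubiquitin ligases had a median of 0.02, with 4 genes higher and 1 lower at that threshold, against 2.87% and 2.05% of all genes. The 4 with the smallest p were the transcription factor Irf8 (0.61, standard error 0.19), which microglia express, the double-stranded RNA receptor Tlr3 (0.24, 0.08), the ubiquitin ligase Trim56 (0.24, 0.08) and Tlr8 (0.31, 0.13). The lower one was the deubiquitinase Cyld (-0.38). The list kept for DNA sensing (6 of 10) had a median of 0.24. It also held Zc3hav1, at 0.40 (standard error 0.14), which encodes the antiviral protein ZAP, a binder of RNA and not a DNA sensor.

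The 55 of 60 other interferon-induced genes had medians over control of 0.10 in model mice and 0.13 in HPYD mice. The mean was higher in the model group for 40 of them, against 45.0% of all genes. For 12 every model array was above every control array and for 1, Ogfr, below, against 4.83% and 4.68% of all genes. An unadjusted p under 0.05 was reached by 9, all with a higher mean, against 2.87% of all genes. The 4 with the smallest p were Rnf213, a large ubiquitin ligase (0.43, standard error 0.12), the secreted glycoprotein Lgals3bp (0.68, 0.19), the chemokine Cxcl9 (0.34, 0.11) and Ifi27 (0.45, 0.15). Lgals3bp was 9.15, 9.33 and 9.07 in the controls, 9.92, 10.00 and 9.65 in the model group and 9.84, 10.26 and 9.45 in the HPYD group, above the controls on all 6 arrays labelled model or HPYD. Per array this list had medians of 0.13, 0.19 and 0.02 in the model group and 0.04, 0.18 and 0.10 in the HPYD group.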

How the data were processed

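Brain RNA of 9 samples in 3 groups of 3 was measured on Affymetrix arrays, and groups were taken from the sample titles. The deposited values form 1 table of log2 signals, from 2.37 to 14.01, over 35556 probe sets. MAS5 stands in the submitters' processing notes with no version, and how the authors corrected background and normalized is not stated in the sources used here. The study describes extraction with the RNeasy kit, whereas the labels name Trizol. Values were used as deposited (array medians 6.69 to 6.82). Columns not used were 0. The platform's gene table gave 1 symbol for 21789 probe sets, several for 1621 and none for 12146, and only the first were used, the one with the highest mean per gene. Arrays carry no read depth, so their number limits the precision. Replicates of a group correlated at 0.975 to 0.997. Identical values on different arrays occurred for 14 members, and 949 to 1991 probe sets held the same value on both arrays of a replicate pair. The reason for these ties was not tested.

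In R 4.3.3, limma 3.58.1 fitted the 3 groups over 19938 genes without covariates (6 residual and 2.13 prior degrees of freedom), with Benjamini-Hochberg adjustment over all genes and a threshold of 0.05. The fit was tested on simulated data. Groups were said not to overlap when every array of one was above every array of the other. The members, lists and tests were chosen with earlier results of these data known. Named were all measured members by role, up to 4 genes of each pathway list with the smallest p for model against control, the type I interferon receptor, all interferon genes, the first 3 of a marker list and the transgenes. Ogfr, Cyld and the smaller lists of genes by array pattern were chosen with their values in view, as was the choice of Model 3 and HPYD 1 as a pair. Alternatives were other scalings, a filter on dim genes (the lowest 33.3%), other variance models, the methods' one-way analysis of variance, the replicate number as a block, the muscle level as a covariate, and leaving out arrays.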

Additional observations from a re-analysis of the deposited data

Results flagged for a closer look

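Probe sets outside the gene values above were read for the members without one of their own and for second probe sets. The probe set that Gbp2 shares with Gbp2b was above every control array on all 3 HPYD arrays, with a mean of 6.74 against 6.53 and a log2 difference of 0.21, and 1 of the 3 model arrays was within the control range. The second Ddx3x probe set was above every control array on all 3 model arrays, with a mean of 9.77 against 9.36 and a log2 difference of 0.41. For the probe sets shared by Irgm2 with Igtp and by Isg15 with Gm9706, the model and HPYD arrays overlapped with the controls.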

How the results depend on the processing

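Counts of 0 members past the adjusted threshold did not change under any of the 18 settings that adjust p, and each of the 692 values of members in each comparison stayed on its side of it, while 30, 69 and 18 values changed sign (model and control, HPYD and model, HPYD and control). Unadjusted p under 0.05 gave 18, 3 and 7 members in that order, and the methods' one-way analysis of variance, unadjusted, gave 8 between model and control and 3 between HPYD and control. That analysis of variance was counted over the members only. Its share over all genes was not computed, so no change is read from its counts. The members' median for model against control was 0.076 with the muscle level as a covariate and 0.095 without the 3 arrays with raised muscle genes; the cause was not tested. Without those 3 arrays, 16 members were higher and 10 lower on both HPYD arrays than on the only model array left. Against a single array such counts are high without any difference. Shares over all genes were not computed for them, so no change is read from them. In the same setting 1 member was lower on both HPYD arrays than every control. With arrays shifted to one median, 8 members in place of 15 were higher on every HPYD than every control array, and with that shift or with quantile normalization 1 member was lower on every HPYD than every model array. The shift moved all genes: for HPYD against control their median was -0.04 in place of 0.01. A higher mean was then held by 7236 of all genes in place of 10818. Shares of all genes without overlap were not computed under either scaling, so no change is read from these counts. With each array left out in turn, members higher on all model than control arrays numbered 17 to 29, the latter without Model 3. Those higher on all HPYD than model arrays numbered 0 to 2 (2 without Model 1 or Model 2, 1 without HPYD 3) and those lower 3 to 10 (10 without Model 3, 8 without HPYD 2, 5 without HPYD 1). Those lower on all HPYD than control arrays numbered 0 to 1, with 1 without HPYD 1 or HPYD 2. With fewer arrays in a group any gene overlaps less often, and shares over all genes were not computed for these counts. Without the array labelled HPYD 3, 7 and 8 genes passed for model and HPYD against control, and with only the 6 arrays compared 5 passed for model against control, none of them members. With the replicate number as a block, 0 members passed in each comparison and the medians were 0.26, -0.05 and 0.18, as without the replicate block. Deviations of same-numbered arrays correlated at -0.32 to 0.18 and those of other arrays from different groups at -0.53 to 0.59. These values show no pairing by number, but they cannot exclude one. Without the dimmest 33.3% of genes, which hold 10 of the members, the median between model and control was 0.28.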
